A study of Mus musculus with 12 samples.

Results

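The Ms4a and Cd300 genes encode membrane proteins that are found mainly on myeloid cells, the lineage of monocytes, macrophages and granulocytes. The set described here holds 10 of the 45777 genes in the deposited gene table, 6 of the Ms4a family (Ms4a4a, Ms4a4c, Ms4a6b, Ms4a6c, Ms4a6d and Ms4a7) and 4 of the Cd300 family (Cd300a, Cd300lb, Cd300lf and Cd300ld). The genes were chosen by name with their read counts in all 4 groups of the study known. Their levels and differences are therefore given as a description. The same fits that tested the genes outside the set also included them, and where the number of them past the threshold is given it stands beside the share of all genes and nothing is read from it. The table lists 23 further genes of these families, Tmem176a and Tmem176b included, and they are treated below as the other family genes.

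MS4A proteins cross the membrane several times and associate with other surface receptors, whose signalling and trafficking they are known to modulate. CD300 proteins carry an immunoglobulin domain and come as opposed pairs. Inhibitory members bear cytoplasmic ITIM motifs that recruit phosphatases, and activating members signal through partner chains that carry an ITAM motif. Several CD300 receptors bind lipids such as phosphatidylserine, which dying cells expose. In the liver both families are known chiefly from Kupffer cells, the resident macrophages, and from recruited monocytes.

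The study cultured liver sinusoidal endothelial cells (LSECs), the fenestrated lining of the liver sinusoids, as primary mouse cells, and Hepa1-6, an established mouse hepatoma line. Each cell was grown alone or with the other across a 3 μm insert, LSECs below at 500000 per well and Hepa1-6 cells above at 100000 per insert. After the medium was changed to DMEM with 2% serum the cultures were kept for 24 h, and 1 μg of total RNA went into each library. The 4 groups of 3 libraries were LSECs alone, LSECs in co-culture, Hepa1-6 alone and Hepa1-6 in co-culture. The labels of the co-cultures name both cells, and the RNA was taken to be that of the cell each label names first. Hepatoma and hepatocyte markers summed to 4454 to 5543 CPM (counts scaled to the library total) in the Hepa1-6 libraries and to 31.4 to 57.8 CPM in the LSEC libraries, and pan-endothelial markers to 37.9 to 41.5 CPM in the Hepa1-6 libraries. No label gives the strain, age or number of mice behind the primary cells, and nothing says that replicates came from separate isolations, so p-values measure only the spread between these libraries.

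Total counts ran from 32761492 to 48870698 per library. All 24 macrophage markers examined stood at 1 CPM or more in LSECs alone and in co-culture, beside all 12 pan-endothelial markers, so the LSEC libraries held transcripts of both kinds. The summed macrophage markers were at 3117 to 4049 CPM in LSECs alone and at 4693 to 5649 CPM in co-culture. The summed pan-endothelial markers were at 13239 to 14745 CPM and 13873 to 15054 CPM. In such bulk libraries, fewer cells of a type and less RNA per cell cannot be told apart. Replicate 1 of both LSEC groups stood apart: set against replicates 2 and 3, its counts gave chi-square values over their degrees of freedom of 181.7 to 295.8, where replicates 2 and 3 gave 4.155 and 5.318 against each other. LSEC results are therefore also given for replicates 2 and 3 alone, and with the replicate number as a block. Deviations of same-numbered LSEC libraries were correlated (0.75, 0.423 and 0.461 for replicates 1 to 3). Crossed pairs of replicates 2 and 3 gave similar values (0.473 and 0.4), so these correlations do not establish a pairing of replicates 2 and 3.

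The 6 Ms4a genes lie together on chromosome 19 over 284 kb and the 4 Cd300 genes on chromosome 11 over 246 kb (mm10). The stretch of 250 bases before the RefSeq start (GRCm38.p6) was read for 9 of the 10 genes, Ms4a6d having no entry and Ms4a7 having more than 1 window, which made 10 windows. For identical runs, 1 window per gene was compared, each read on the strand of its gene. A further Ms4a7 window was thus left out. Between Ms4a6c and Ms4a6b, which both stood higher in co-cultured LSECs, an identical run of 48 bases was found. The next longest run shared by any compared pair was 10 bases. The run of 48 bases covers bases 49 to 2 before the start of Ms4a6c and bases 118 to 71 before that of Ms4a6b. The pair is shown because it holds the longest run found among the compared windows. The common run is in capitals, 5′ to 3′ on the plus strand, at chr19:11469118-11469367 and chr19:11518309-11518558.
Ms4a6c: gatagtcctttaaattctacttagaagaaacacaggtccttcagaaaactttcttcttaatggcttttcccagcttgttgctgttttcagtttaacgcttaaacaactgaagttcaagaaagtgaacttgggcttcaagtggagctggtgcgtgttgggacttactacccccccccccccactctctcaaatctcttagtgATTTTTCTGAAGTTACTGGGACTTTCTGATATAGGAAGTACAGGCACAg
Ms4a6b: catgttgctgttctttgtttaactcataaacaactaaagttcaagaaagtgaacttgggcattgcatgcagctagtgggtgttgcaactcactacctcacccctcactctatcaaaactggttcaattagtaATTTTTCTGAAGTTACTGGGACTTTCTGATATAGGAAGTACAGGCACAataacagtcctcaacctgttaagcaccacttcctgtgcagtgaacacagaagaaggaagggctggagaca

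The windows were searched on both strands for 3 motifs. GAGGAA, the core bound by PU.1, a transcription factor of myeloid cells, was present in 4 of the 10 windows and in 23.3% of all 32851 RefSeq promoter windows of the same length. TGANTCA, the AP-1 motif, was present in 1 of the 10 (a Ms4a7 window, 81 bases before the start) and in 6.75% of all. An interferon regulatory factor element, GAAA repeated after 2 free bases, was in none of the 10 and in 2.98% of all. The PU.1 core stood 39 bases before the start in Cd300a, 43 in Cd300lf, 61 in Ms4a4c and 143 in Cd300ld. Cd300a and Cd300ld are shown because they carry the same core and moved in opposite directions in co-cultured LSECs. Ms4a4a is shown because it had the largest fold difference of the 10 and its window held none of the 3 motifs. The bases just after the Ms4a4a start were not found in a GENCODE transcript of that gene, so the placing of its window is less certain. That window ends at chr19:11375487, and the deposited span of the gene starts at chr19:11375488. The Cd300a, Cd300lf and Ms4a4c windows lie within the deposited spans of their genes, as does the Ms4a7 window with the AP-1 motif. The motifs in these windows thus stand before a RefSeq start that lies inside the gene. Capitals mark the core, read on the strand of the gene, Cd300ld being on the minus strand, at chr11:114889791-114890040, chr11:114989887-114990136 and chr19:11375238-11375487.
Cd300a: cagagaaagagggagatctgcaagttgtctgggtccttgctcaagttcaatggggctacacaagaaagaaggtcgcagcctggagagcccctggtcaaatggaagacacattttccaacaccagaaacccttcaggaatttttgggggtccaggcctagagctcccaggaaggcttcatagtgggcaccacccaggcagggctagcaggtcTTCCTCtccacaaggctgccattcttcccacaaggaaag
Cd300ld: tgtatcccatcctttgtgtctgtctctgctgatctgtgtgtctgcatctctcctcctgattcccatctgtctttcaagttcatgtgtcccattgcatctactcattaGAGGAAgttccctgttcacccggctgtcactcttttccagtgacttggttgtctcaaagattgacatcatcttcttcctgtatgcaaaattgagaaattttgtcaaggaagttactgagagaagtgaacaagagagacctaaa
Ms4a4a: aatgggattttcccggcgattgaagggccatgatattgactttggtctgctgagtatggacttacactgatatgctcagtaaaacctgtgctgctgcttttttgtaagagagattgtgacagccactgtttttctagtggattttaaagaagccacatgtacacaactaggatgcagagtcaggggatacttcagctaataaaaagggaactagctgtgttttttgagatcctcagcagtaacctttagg

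The transcripts of both families were found in the LSEC libraries and were nearly absent from Hepa1-6. The 10 genes together took 26 to 51 counts in each of the 6 Hepa1-6 libraries, against 5158 to 8542 counts in LSECs alone and 15576 to 21767 in co-cultured LSECs. Ms4a7, Cd300lf and Cd300ld were at 0 in all 6 Hepa1-6 libraries. Taking the 3 counts that a count of 0 allows over the group as the limit, Ms4a6d was at least 1502-fold higher in LSECs alone than in Hepa1-6 alone, Cd300ld at least 1389-fold, Ms4a7 at least 1325-fold and Cd300lf at least 281-fold. Among the 9 genes with enough counts to be fitted between the cells grown alone, 9 were past the threshold as higher in LSECs, where 37.2% of all fitted genes were. With these values known when the genes were chosen, nothing is read from that count.

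In Hepa1-6 cells, Cd300lb was the gene of the set with enough counts to be compared between the cultures. It had 19, 14 and 38 counts in Hepa1-6 alone and 24, 19 and 23 counts in Hepa1-6 in co-culture. The groups overlapped, and the log2 fold change was 0.01 (SE 0.39). The other 9 genes were too low in this line for a comparison, whereas 15.5% of all fitted genes were past the threshold there.

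In LSECs co-cultured with Hepa1-6 cells, the Cd300 genes differed in both directions, and the Ms4a genes other than Ms4a7 stood higher. Ms4a4a, Ms4a4c, Ms4a6b, Ms4a6c, Ms4a6d and Cd300ld stood higher in all 3 co-cultured libraries than in any library of LSECs alone, Cd300a, Cd300lb and Cd300lf stood lower, and Ms4a7 overlapped. By edgeR's quasi-likelihood test with Benjamini-Hochberg adjustment over 15256 genes at a threshold of 0.05, 9 of the 10 were past the threshold, 6 higher and 3 lower, where 3.09% of all genes were. For these 9 no co-cultured library lay within the range of LSECs alone, which held for 21.5% of all genes. These counts follow from how the genes were chosen and are not a result. With the replicate block 10 of 10 were past the threshold, where 33.3% of all genes were (16.7% higher and 16.6% lower). In replicates 2 and 3 alone it was again 10 of 10, where 36.4% of all genes were (19.4% higher and 17.0% lower). Leaving out 1 library gave 6 without LSEC co-culture replicate 2 or 3, 8 without LSEC mono-culture replicate 2 or 3, and 9 without replicate 1 of either group.

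**Figure D1:**
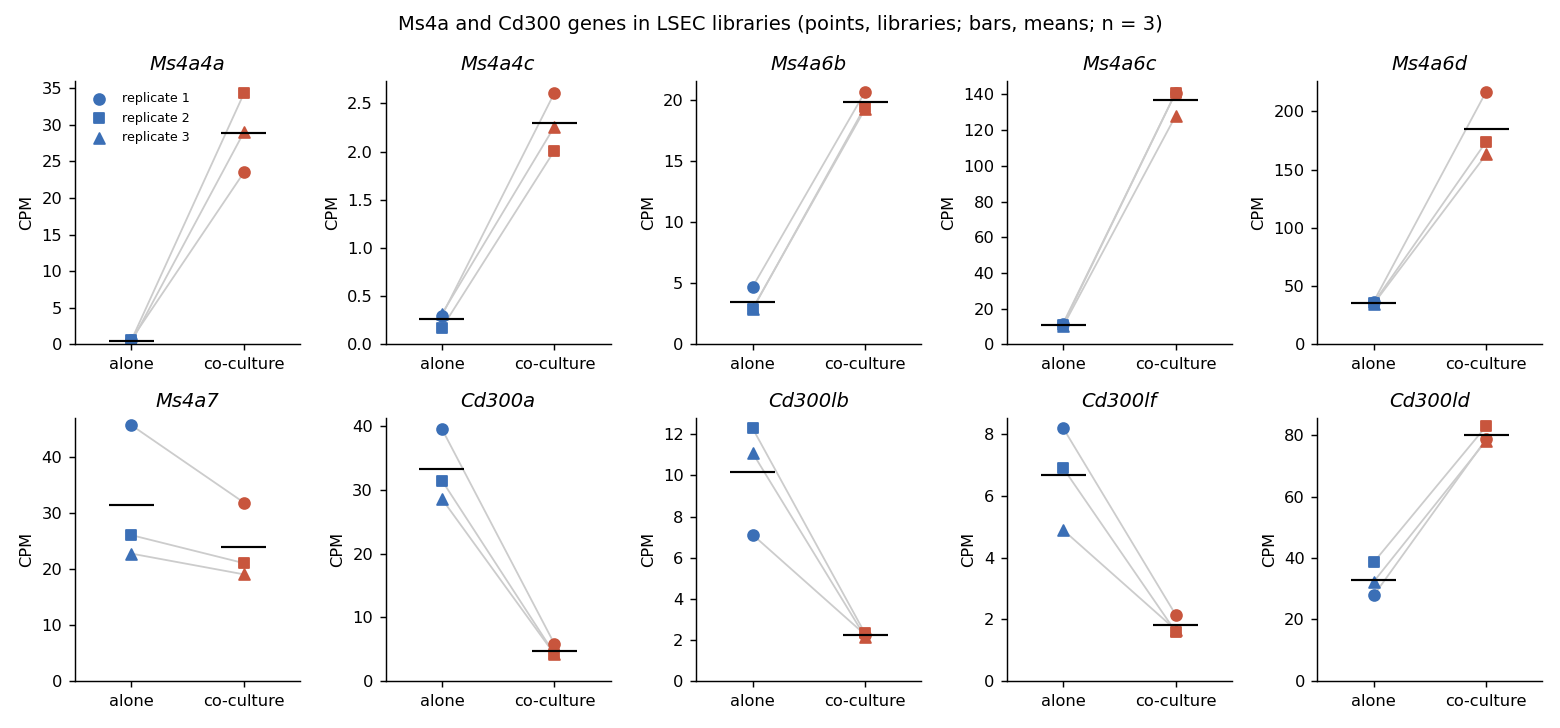
Level of each of the 10 genes in CPM (vertical axis from 0) in LSECs alone and in co-culture. Points are libraries, grey lines join same-numbered replicates and black bars are means (n = 3). 6 genes stand higher in every co-cultured library, Cd300a, Cd300lb and Cd300lf stand lower, and Ms4a7 overlaps.

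Ms4a4a (Gene number 666907, chr19:11375488-11392915) is the mouse relative of human MS4A4A, a macrophage protein that associates with the β-glucan receptor dectin-1. In LSECs alone it was at 0.640, 0.538 and 0.287 CPM in replicates 1 to 3, from 30, 19 and 10 counts. In co-culture it was at 23.5, 34.3 and 29.0 CPM, from 974, 1246 and 1010 counts. The lowest co-cultured library was far above the highest of LSECs alone, and the log2 fold change was 5.82 (SE 0.34), a 56.5-fold difference. With so few counts in the cells grown alone the ratio is loosely fixed: it was 36.8, 63.7 and 101 between same-numbered replicates, and the log2 fold change was 6.23 in replicates 2 and 3 alone.

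Ms4a4c (64380, chr19:11404717-11427246), a myeloid family member whose transcript is known to respond to interferon, stayed a low transcript. It was at 0.298, 0.170 and 0.315 CPM in LSECs alone and at 2.61, 2.01 and 2.26 CPM in co-culture, from 6 to 14 counts and 73 to 108 counts. The groups did not overlap, with a log2 fold change of 3.07 (SE 0.32) and of 3.10 in replicates 2 and 3 alone. On the log2(TPM + 1) scale, which compresses low values, the difference was 1.54.

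The 3 genes of the Ms4a6 group differed in level and in the size of the difference. Ms4a6c (73656, chr19:11469353-11487182) is expressed in mouse myeloid cells. It was at 11.6, 10.9 and 10.1 CPM in LSECs alone and at 141, 141 and 128 CPM in co-culture. Its replicates lay close together: the log2 ratio was 3.61, 3.70 and 3.66 between same-numbered replicates, and the log2 fold change was 3.62 (SE 0.15), with 3.66 in replicates 2 and 3 alone.

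Ms4a6d (68774, chr19:11586606-11604804) encodes a macrophage protein reported in mouse to act together with the complement receptor VSIG4. It was at 36.6, 35.5 and 34.7 CPM in LSECs alone and at 217, 174 and 163 CPM in co-culture. The groups did not overlap, replicate 1 was the highest library in co-culture, and the log2 fold change was 2.34 (SE 0.16), a 5.06-fold difference. Without replicate 1 it was 2.25.

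Ms4a6b (69774, chr19:11518559-11530403) is known in mouse from T cells as well as from myeloid cells. It was at 4.69, 2.86 and 2.90 CPM in LSECs alone and at 20.7, 19.5 and 19.3 CPM in co-culture. Replicate 1 was the highest library of LSECs alone, and the groups did not overlap. The log2 fold change was 2.46 (SE 0.25), and 2.73 in replicates 2 and 3 alone.

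Ms4a7 (109225, chr19:11321039-11336146), a marker of mature macrophages, did not share the pattern of its neighbours. It was at 45.6, 26.0 and 22.7 CPM in LSECs alone and at 31.8, 21.0 and 19.0 CPM in co-culture. The groups overlapped, and the log2 fold change was -0.43 (SE 0.35). Within each replicate number the co-cultured library was the lower one. With the replicate block the log2 fold change was -0.40 (SE 0.08), and in replicates 2 and 3 alone it was -0.30.

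Of the Cd300 genes, Cd300a and Cd300lf encode inhibitory receptors with ITIM motifs. Cd300a (217303, chr11:114889152-114901946) binds phosphatidylserine and phosphatidylethanolamine on dying cells. It was at 39.6, 31.5 and 28.6 CPM in LSECs alone and at 5.80, 4.26 and 4.19 CPM in co-culture. Every co-cultured library was below every library of LSECs alone, with a log2 fold change of -2.84 (SE 0.23), a 7.17-fold difference. The ratio of LSECs alone to co-culture was 6.84, 7.38 and 6.83 between same-numbered replicates.

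Cd300lf (246746, chr11:115116214-115135372) recognises phosphatidylserine and ceramide and serves in mice as the entry receptor of norovirus. It was at 8.21, 6.91 and 4.90 CPM in LSECs alone and at 2.15, 1.60 and 1.66 CPM in co-culture, from 171 to 385 and 58 to 89 counts. The groups did not overlap, and the log2 fold change was -1.92 (SE 0.27), with -1.87 in replicates 2 and 3 alone. The gene lies wholly within Rab37 on the opposite strand. Rab37 had 4 to 9 counts in LSECs alone and 14 to 35 in co-culture, and the strand setting of the authors' counting is not given in the sources used here, so reads of the 2 genes cannot be told apart with certainty.

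Cd300lb and Cd300ld encode activating receptors, which use the adaptors DAP12 and the Fc receptor γ chain. Cd300lb (217304, chr11:114922779-114934371) was at 7.12, 12.3 and 11.1 CPM in LSECs alone and at 2.25, 2.31 and 2.15 CPM in co-culture. Replicate 1 was the lowest library of LSECs alone and still stood above all of the co-cultures. The log2 fold change was -2.21 (SE 0.23), and -2.40 in replicates 2 and 3 alone.

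Cd300ld (217305, chr11:114982443-114989886) was the gene of the Cd300 set that stood higher in co-culture. It was at 27.8, 38.6 and 32.3 CPM in LSECs alone and at 78.7, 82.9 and 78.2 CPM in co-culture. The groups did not overlap, and the log2 fold change was 1.25 (SE 0.15), a 2.37-fold difference, with 1.16 in replicates 2 and 3 alone. The direction thus did not follow the inhibitory or activating role: an activating gene and both inhibitory genes were lower, and the other activating gene was higher.

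When each of the 6 LSEC libraries was left out in turn, the log2 fold change ran from -3.02 to -2.67 for Cd300a, from -2.40 to -2.05 for Cd300lb, from -2.11 to -1.72 for Cd300lf and from 1.16 to 1.38 for Cd300ld. Without LSEC co-culture replicate 2 or 3, Cd300lb, Cd300lf and Cd300ld did not pass the threshold. Cd300lf also did not pass without LSEC mono-culture replicate 2, nor Cd300ld without LSEC mono-culture replicate 3. By limma, Cd300lb and Cd300ld did not pass. Cd300a passed in each of these fits.

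Levels between genes were compared per transcript length, by the deposited TPM (counts scaled by transcript length and library total), given as mean ± SD with n = 3. In LSECs alone, Ms4a6d was at 54.6 ± 7.72 TPM and Ms4a7 at 47.3 ± 9.83 TPM, and their libraries overlapped. Cd300a at 34.7 ± 1.58 TPM and Cd300ld at 28.8 ± 8.51 TPM came next and overlapped each other. Ms4a6c followed at 13.2 ± 1.08 TPM. Cd300lb at 7.88 ± 3.17 TPM and Cd300lf at 6.38 ± 0.918 TPM overlapped, and Ms4a6b at 4.19 ± 0.477 TPM, Ms4a4a at 0.964 ± 0.306 TPM and Ms4a4c at 0.263 ± 0.109 TPM closed the order without overlap.

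In co-cultured LSECs, Ms4a6d at 276 ± 8.41 TPM and Ms4a6c at 159 ± 17.9 TPM made up 43.4% and 25.1% of the TPM of the 10 genes. Cd300ld at 68.0 ± 9.61 TPM, Ms4a4a at 61.0 ± 17.6 TPM and Ms4a7 at 36.4 ± 5.46 TPM each overlapped with the next in that order. Ms4a6b was at 24.3 ± 2.21 TPM. The lowest were Cd300a at 4.92 ± 0.311 TPM, Ms4a4c at 2.68 ± 0.181 TPM, and Cd300lb at 1.62 ± 0.177 TPM and Cd300lf at 1.60 ± 0.502 TPM, which overlapped. Cd300a went from rank 3 to rank 7 of the 10, and Ms4a4a from rank 9 to rank 4.

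**Figure D2:**
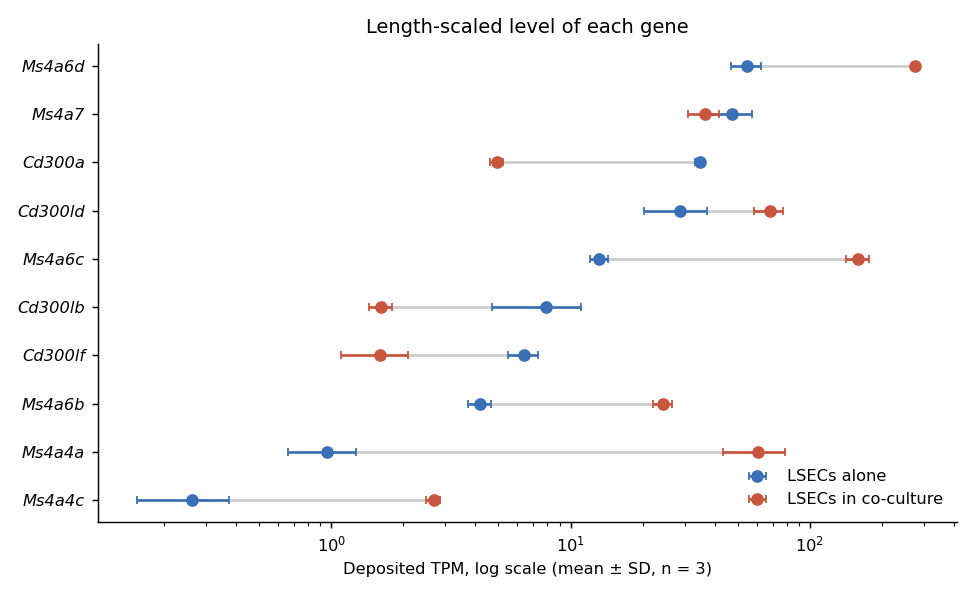
Deposited TPM of the 10 genes (horizontal log axis) in LSECs alone and in co-culture, as mean ± SD (n = 3), ordered by the level in LSECs alone. The difference runs from 47.3 against 36.4 TPM for Ms4a7 to 0.964 against 61.0 TPM for Ms4a4a.

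The sums of the families moved differently, as TPM. The 6 Ms4a genes together were at 117 to 123 TPM in LSECs alone and at 529 to 597 TPM in co-culture. The 4 Cd300 genes were at 64.9 to 89.4 TPM and at 65.7 to 82.8 TPM, so that their sum overlapped while every one of them differed without overlap. Cd300ld made up most of the Cd300 sum in co-culture.

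For 4 of the 10 genes (Ms4a4a, Ms4a6b, Ms4a6d and Cd300ld) the deposited transcript table holds 1 transcript. For Ms4a6c the transcript of 1844 bases took 84.3 to 92.2% of the gene's estimated reads in LSECs alone and 93.1 to 93.9% in co-culture. For Ms4a7 the transcript of 1336 bases took 78.9 to 97.1% and 85.6 to 94.2%. For Cd300a the transcript of 1937 bases took 51.4 to 72.4% and 29.7 to 91.8%, and the ranges of the cultures overlapped. For Ms4a4c the transcript of 1723 bases took 0% in each library of LSECs alone, where the gene had 6 to 14 counts, and 94.5 to 98.1% in co-culture. For Cd300lb the transcript of 2867 bases took 49.2 to 99.1% and 51.6 to 100%. Cd300lf has 9 transcripts in the table, and the one of 1885 bases took 6.97 to 66.5% and 0 to 93.1%. Each of the 10 shares few of its 50-base words with any other gene, within or outside the set. The share ran from 0% for Ms4a4a and Cd300lb to 10.5% for Ms4a6c, which shared most with Ms4a6b. Ms4a6c also overlaps the antisense transcript BE692007, which had 0 to 5 counts in LSECs alone and 44 to 48 in co-culture, against 351 to 542 and 4448 to 5858 for Ms4a6c.

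The other family genes are not in the set, but they are what was left once the 10 were chosen with values known. Their calls are therefore not independent of that choice. The lists of signalling genes, receptors and markers below were also chosen with earlier results of these data known. Of the 23, 13 had enough counts in LSECs. By edgeR's test 2 rose in co-culture and 0 fell, with a median log2 fold change of 1.18 against -0.03 over all genes, and 3.09% of all genes were past the threshold in either direction. At an unadjusted p under 0.05 the counts were 4 and 0, and DESeq2 and limma each called 3 higher and 0 lower. Of all 15256 genes, DESeq2 called 786 higher and 515 lower, and limma 314 and 93. The share of all genes at an unadjusted p under 0.05 is not given here. The replicate block gave 7 that rose and 1 that fell, where 16.7% of all genes rose and 16.6% fell. Replicates 2 and 3 alone gave 8 and 1, where 19.4% of all genes rose and 17.0% fell. Any library left out other than LSEC mono-culture replicate 1 left 1 call. The 4 genes Cd300ld2, Cd300ld3, Cd300ld4 and Cd300ld5 share 31.0, 82.1, 93.8 and 100% of their 50-base words with other genes, so their counts are uncertain and are not separate measurements. Without them 2 of 9 rose and 0 fell, with a median log2 fold change of 0.55, and with the block 3 rose and 1 fell. Of the 20 other family genes that lie inside the 2 clusters, 10 had enough counts, and by edgeR's test 1 (Cd300e) rose and 0 fell, against 2 and 0 at an unadjusted p under 0.05. With the block 5 of these 10 rose and 1 fell, and 1 and 1 of the 6 that remain without the 4 Cd300ld genes. Ms4a4d, which lies between Ms4a6b and Ms4a6d and was named after its values were seen, was at 0.691 CPM in LSECs alone and at 1.04 CPM in co-culture (log2 fold change 0.55, SE 0.29, adjusted p = 0.521 by edgeR).

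Cd300e, an activating receptor of monocytes and macrophages, rose from 7.48 ± 1.19 CPM to 53.6 ± 3.56 CPM (SD, n = 3). The libraries did not overlap, and the log2 fold change was 2.81 (SE 0.17), with an adjusted p of 0.00114 by edgeR. It lies between Cd300ld3 and Cd300lf, and so next to a gene that stood lower. Tmem176a, an intracellular cation channel gene of the wider MS4A superfamily, rose from 39.5 ± 10.2 CPM to 112 ± 25.6 CPM, by 1.46 on the log2 scale (SE 0.27) with an adjusted p of 0.0466 by edgeR. That call was lost when any library other than LSEC mono-culture replicate 1 was left out, and the adjusted p then ran from 0.106 to 0.198, against 1.54e-10 to 0.198 over all alternatives.

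Tmem176b, the partner of Tmem176a on chromosome 6, was at 169 ± 60.2 CPM and 393 ± 121 CPM. The libraries did not overlap, and the difference of 1.18 on the log2 scale (SE 0.34) had an adjusted p of 0.169 by edgeR, of 3.39e-07 with the replicate block and of 2.73e-12 to 0.468 over all alternatives. In Hepa1-6 cells, where both genes are well expressed, they rose slightly in co-culture, Tmem176a from 114 to 124 CPM (log2 fold change 0.12, adjusted p = 0.0106 by edgeR) and Tmem176b from 253 to 278 CPM (log2 fold change 0.13, adjusted p = 0.00197 by edgeR). They were 2 of the 3 other family genes that could be fitted there, where 15.5% of all genes were past the threshold.

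Cd300c2, an activating receptor gene beside Cd300ld, was at 22.4 ± 9.03 CPM in LSECs alone and 14.4 ± 5.52 CPM in co-culture. Its libraries overlapped (log2 fold change -0.68, adjusted p = 0.578 by edgeR), and it was the gene that fell with the replicate block (log2 fold change -0.67, adjusted p = 0.00061). It was named after its values were seen. Cd300ld4 was at 2.86 ± 1.63 CPM and 7.47 ± 3.29 CPM (log2 fold change 1.36, SE 0.58, adjusted p = 0.374 by edgeR, 0.000212 with the replicate block, and 9.77e-06 to 0.783 over all alternatives). Its values are uncertain for the shared words given above, Cd300ld5 sharing the most. Cd300lg, an endothelial member that lies apart on chromosome 11, was at 4.64 ± 0.663 CPM and 5.89 ± 0.758 CPM, and its libraries overlapped.

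**Figure D3:**
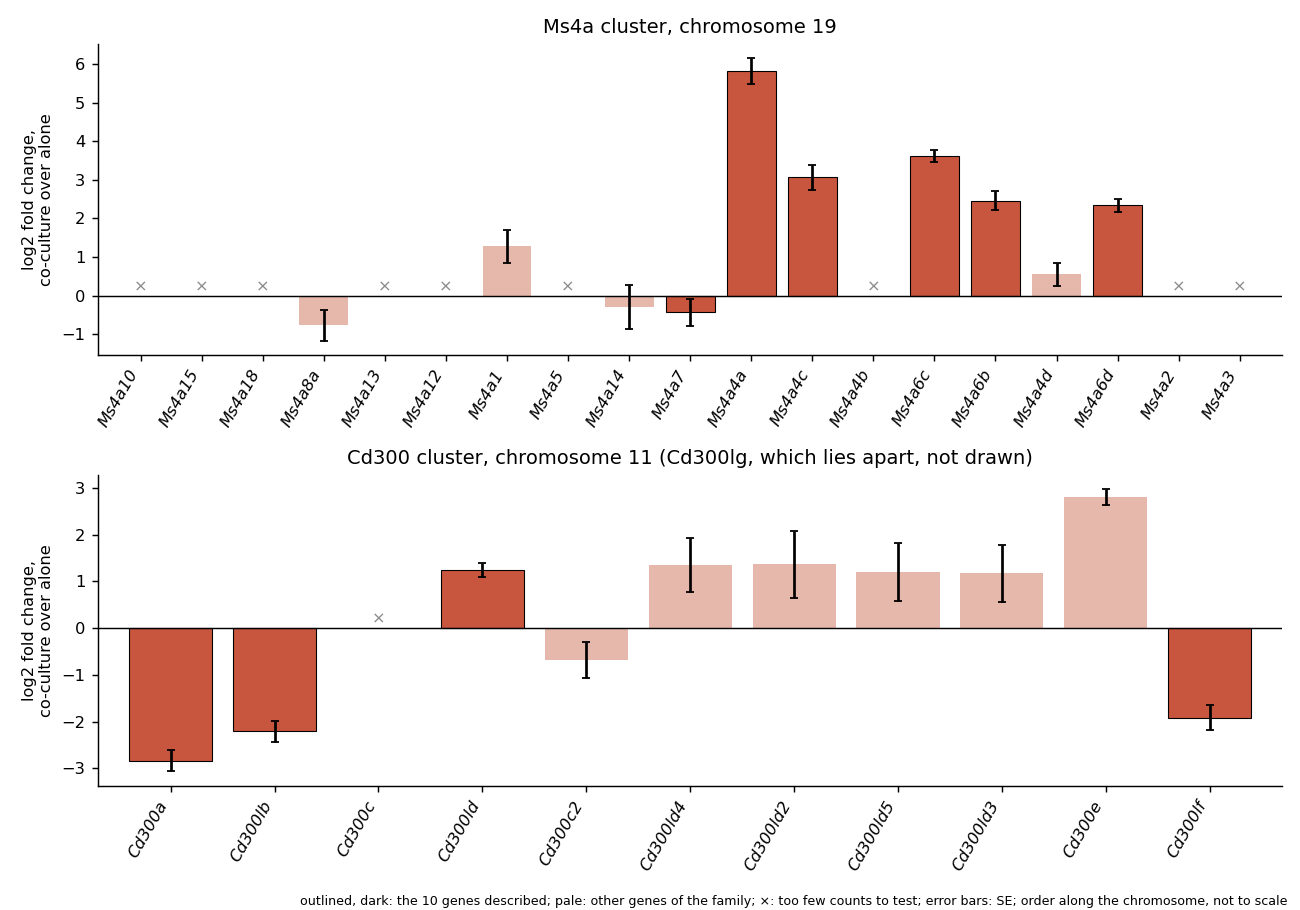
Log2 fold change of each family gene in LSECs, co-culture over alone (vertical axis, error bars SE), in order along chromosome 19 and chromosome 11 and not to scale. Dark outlined bars are the 10 genes described and pale bars other family genes, and crosses mark genes with too few counts to fit. In the Ms4a cluster the bars from Ms4a4a to Ms4a6d stand above 0 beside Ms4a7 at -0.43, and in the Cd300 cluster Cd300e at 2.81 and Cd300lf at -1.92 are neighbours.

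The Cd300 receptors signal through ITAM adaptors, kinases and phosphatases, of which 20 were examined, and all 20 had enough counts in LSECs. By edgeR's test 8 rose and 0 fell, with a median log2 fold change of 0.61 against -0.03 over all genes, and 2.18% of all genes were past the threshold as higher. At an unadjusted p under 0.05 the counts were 10 and 2, DESeq2 called 8 higher and 1 lower, and limma 5 and 0. Of all 15256 genes, DESeq2 called 786 higher and 515 lower, and limma 314 and 93. Blocking on the replicate gave 14 that rose and 2 that fell, where 16.7% of all genes rose and 16.6% fell. Replicates 2 and 3 alone gave 12 and 1, where 19.4% of all genes rose and 17.0% fell. Leaving out LSEC mono-culture replicate 1 gave 8 calls, and leaving out any other library 2 to 5.

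The genes that rose included adaptors and kinases below the receptors. Lcp2, which encodes the adaptor SLP-76, rose from 54.3 ± 5.18 CPM to 148 ± 3.63 CPM (log2 fold change 1.41, SE 0.12, adjusted p = 0.00349 by edgeR). Fgr, a Src family kinase of myeloid cells, rose from 9.74 ± 1.61 CPM to 33.0 ± 1.97 CPM (log2 fold change 1.73, SE 0.16, adjusted p = 0.00421). For both genes every co-cultured library stood above every library of LSECs alone.

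Vav1, a guanine nucleotide exchange factor of blood cells, rose from 35.6 ± 3.13 CPM to 86.2 ± 6.43 CPM (log2 fold change 1.24, adjusted p = 0.00843 by edgeR). Pik3cd, the leukocyte phosphoinositide 3-kinase subunit, rose from 11.4 ± 2.48 CPM to 33.8 ± 2.36 CPM (log2 fold change 1.53, adjusted p = 0.011 by edgeR). The call of Vav1 was lost without LSEC co-culture replicate 2 or LSEC mono-culture replicate 2 or 3 (adjusted p 0.0593 to 0.0621, against 1.16e-13 to 0.0621 over all alternatives). The call of Pik3cd was lost without LSEC co-culture replicate 2 or 3 or LSEC mono-culture replicate 3 (adjusted p 0.0667 to 0.0702) and by limma (0.0778), against 3.97e-11 to 0.0778 over all alternatives.

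The partner chains that carry the ITAM motif, encoded by Tyrobp and Fcer1g, did not pass edgeR's test without the block. In simulated counts this test recovered 0 of 62 changes of 1.5-fold and 9 of 69 of 2-fold in LSECs. A gene not called may therefore still differ. Tyrobp, which encodes DAP12, was at 70.9 ± 32.8 CPM in LSECs alone and at 94.6 ± 42.9 CPM in co-culture. Its libraries overlapped, with a log2 fold change of 0.37 (SE 0.44, adjusted p = 0.878 by edgeR), and of 0.38 with the replicate block (adjusted p = 0.000456). Without LSEC co-culture replicate 1 it was -0.07, and over all alternatives the adjusted p ran from 0.000175 to 1. Fcer1g, which encodes the Fc receptor γ chain used by CD300 activating receptors, was at 81.8 ± 32.3 CPM and at 186 ± 79.3 CPM. Its libraries did not overlap, and the log2 fold change of 1.14 (SE 0.40) had an adjusted p of 0.27 by edgeR, of 3.59e-07 with the replicate block and of 2.01e-10 to 0.603 over all alternatives.

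A list of 30 other myeloid receptors was split in direction. Of 28 with enough counts in LSECs, 7 rose and 5 fell by edgeR's test, with a median log2 fold change of 0.29 against -0.03 over all genes. Of all genes, 2.18% were past the threshold as higher and 0.911% as lower. Blocking gave 15 and 8, where 16.7% of all genes rose and 16.6% fell. Replicates 2 and 3 alone gave 13 and 9 of 29, where 19.4% of all genes rose and 17.0% fell. Without LSEC co-culture replicate 2 or 3, or LSEC mono-culture replicate 2 or 3, 3 to 5 were called.

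From that list Trem2, Clec7a and Vsig4 are described because of links to MS4A proteins in the literature, and they were chosen with earlier results of these data known. Trem2 encodes a lipid receptor of macrophages and microglia, and variants near human MS4A4A go with the level of its soluble form. It was at 18.5 to 41.0 CPM in LSECs alone and at 0.605 to 2.66 CPM in co-culture, with a log2 fold change of -4.32 (SE 0.68, adjusted p = 0.0285 by edgeR). Clec7a, which encodes dectin-1, was at 99.7 to 136 CPM and at 39.1 to 43.4 CPM (log2 fold change -1.50, SE 0.15, adjusted p = 0.00613 by edgeR). Vsig4 was at 57.3 to 80.3 CPM and at 16.8 to 18.4 CPM (log2 fold change -2.03, SE 0.18, adjusted p = 0.00349 by edgeR). For each of these 3 genes every co-cultured library stood below every library of LSECs alone. The call of Trem2 was lost without LSEC co-culture replicate 2 or 3 (adjusted p 0.109 and 0.146) or LSEC mono-culture replicate 2 or 3 (0.0915 and 0.0773), against 2.93e-11 to 0.146 over all alternatives. The call of Clec7a was lost without LSEC co-culture replicate 2 or 3 (adjusted p 0.0538 and 0.0519, against 2.74e-16 to 0.0538 over all alternatives).

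Of the receptors that rose, Clec4e, which encodes the FcRγ-coupled lectin Mincle, went from 16.9 ± 3.54 CPM to 133 ± 8.19 CPM (log2 fold change 2.94, SE 0.19, adjusted p = 0.00127 by edgeR). Siglece, an inhibitory sialic acid receptor with ITIM motifs, went from 31.6 ± 5.17 CPM to 138 ± 18.5 CPM (log2 fold change 2.09, SE 0.19, adjusted p = 0.00455 by edgeR). Inhibitory receptors thus differed in direction, Siglece higher and Cd300a and Cd300lf lower.

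**Figure D4:**
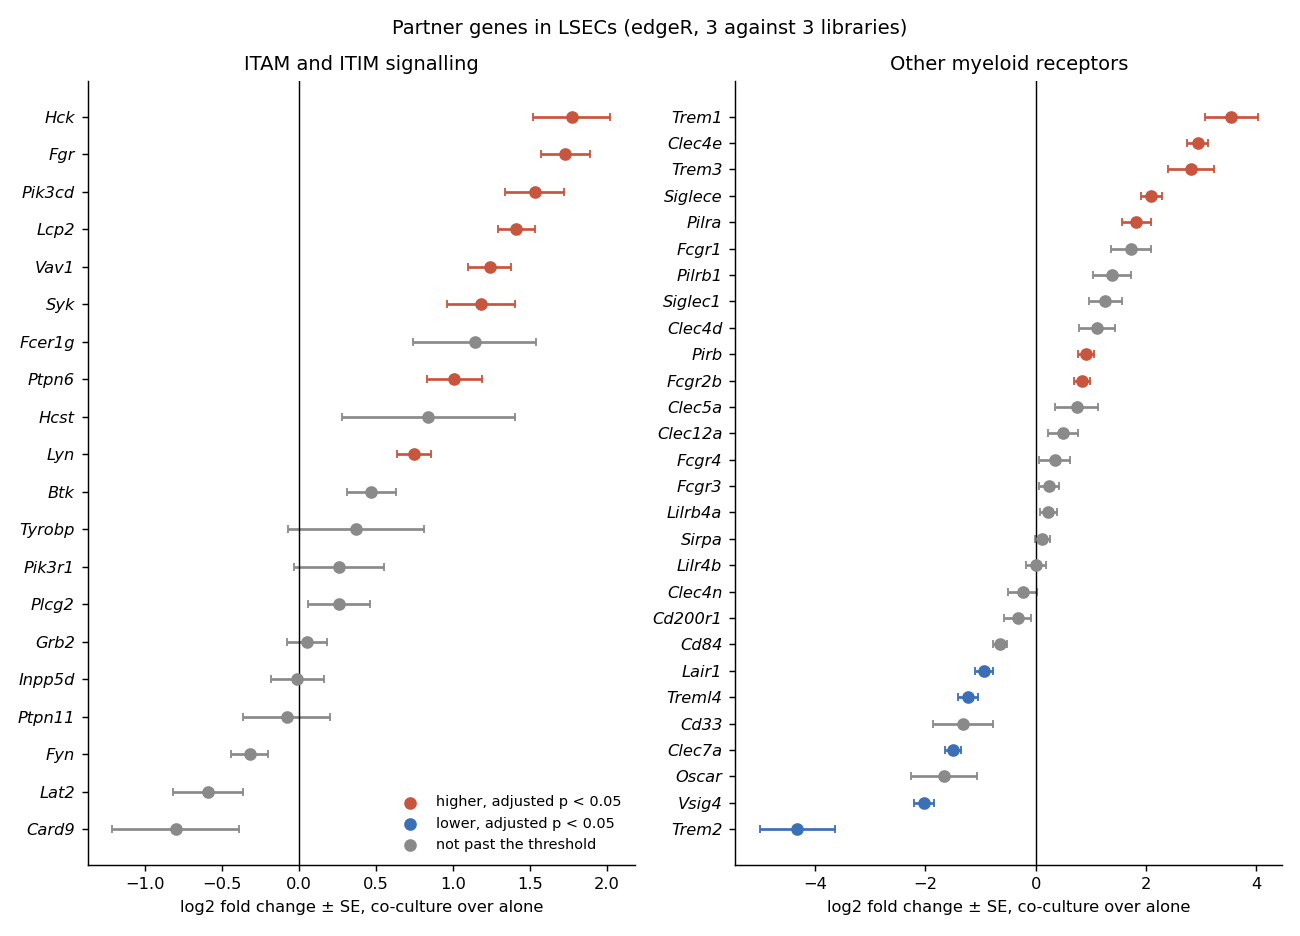
Log2 fold change ± SE in LSECs, co-culture over alone, of 20 ITAM and ITIM signalling genes and 28 other myeloid receptors (horizontal axes, edgeR, 3 against 3 libraries). Red points rose, blue points fell and grey points did not pass the threshold. 8 signalling genes rose and 0 fell, and 7 receptors rose and 5 fell, from Trem2 at -4.32 up to Trem1.

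Cd300a and Cd300lf are phosphatidylserine receptors, and 15 other receptors and bridging proteins for that lipid were examined. Of 13 with enough counts in LSECs, 0 rose and 1 fell by edgeR's test, with a median log2 fold change of -0.08. Of all genes, 2.18% rose and 0.911% fell by that test. At an unadjusted p under 0.05, 0 rose and 2 fell, DESeq2 called 0 and 2, and limma 0 and 0. Axl, a receptor kinase, fell from 91.5 ± 17.0 CPM to 43.6 ± 4.77 CPM (log2 fold change -1.10, SE 0.17, adjusted p = 0.0285 by edgeR). Its call was lost when any library other than LSEC mono-culture replicate 1 was left out (adjusted p 0.0911 to 0.152) and by limma (0.276), against 2.84e-10 to 0.276 over all alternatives. The related kinase Mertk was at 246 ± 91.4 CPM and 189 ± 55.5 CPM, and the bridging ligands Gas6 at 226 ± 18.3 CPM and 263 ± 6.56 CPM and Pros1 at 951 ± 154 CPM and 1165 ± 159 CPM. These 3 did not pass the test (adjusted p 0.784, 0.705 and 0.681 by edgeR). Under the block the counts were 4 higher and 3 lower, and in replicates 2 and 3 alone 4 and 4, where 33.3% and 36.4% of all genes were past the threshold.

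Macrophage markers moved in both directions with the 10 genes. Of 24, 4 rose and 3 fell by edgeR's test, 11 and 9 with the replicate block, and 12 and 10 in replicates 2 and 3 alone. Of all genes 2.18% rose and 0.911% fell by the same test, 33.3% were called with the block and 36.4% in replicates 2 and 3 alone. Itgam, the integrin chain CD11b, rose from 11.1 ± 4.91 CPM to 251 ± 74.0 CPM (log2 fold change 4.47, adjusted p = 0.0065 by edgeR), and Adgre1, which encodes F4/80, from 119 ± 22.2 CPM to 529 ± 54.6 CPM (log2 fold change 2.12, adjusted p = 0.00324 by edgeR). Cd5l, a secreted protein of Kupffer cells, fell from 427 ± 75.0 CPM to 127 ± 22.6 CPM (log2 fold change -1.79, adjusted p = 0.0109 by edgeR), a call lost without LSEC co-culture replicate 2 or 3 or LSEC mono-culture replicate 2 (adjusted p 0.0576 to 0.078, against 1.96e-12 to 0.078 over all alternatives). Csf1r at 134 ± 17.1 CPM and 126 ± 4.53 CPM and Cd68 at 165 ± 28.9 CPM and 165 ± 33.9 CPM overlapped between the cultures. The part of these markers in the differences of the 10 genes was not tested. Without LSEC co-culture replicate 2 or 3 or LSEC mono-culture replicate 2 or 3, 3 to 4 of the markers were called.

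Markers of other blood cells were summed in the same way. The 10 monocyte markers summed to 36.4 to 42.1 CPM in LSECs alone and to 255 to 310 CPM in co-culture, with 3 and 5 of them at 1 CPM or more. Most of that sum was Itgal, which went from 22.8 to 267 CPM. The 10 neutrophil markers summed to 0.283 to 2.67 CPM and to 7.54 to 17.1 CPM, the 8 B cell markers to 8.11 to 11.6 CPM and to 16.5 to 19.3 CPM, and the 10 T and NK cell markers to at most 1.00 CPM in either group. Most of the neutrophil sum in co-culture was S100a8, at 0.440 CPM in LSECs alone and 10.1 CPM in co-culture, whereas S100a9 was at 0.439 and 0.365 CPM and Ly6g and Retnlg were at 0. Of the B cell markers, Ighm was at 2.41 and 10.6 CPM and Cd22 at 6.03 and 3.84 CPM. The mast cell gene Ms4a2, which lies beside Ms4a6d, was at 0 in all LSEC libraries. The part of these markers in the differences of the 10 genes was not tested.

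For 3 of the 10 genes, the genes with the most similar profile were sought by Pearson correlation of log2(CPM + 1) over the 12 libraries, among 10778 genes of at least 5 CPM in an LSEC group. The libraries share cell type and culture, so high values are common and are given as a description. For Ms4a4a they were Mmp8, Il6 and Raver2 (r of 0.9957, 0.9954 and 0.9947). Il6, the cytokine interleukin 6, was at 0.665 CPM in LSECs alone and at 65.3 CPM in co-culture. For Ms4a7 they were the complement genes C1qb and C1qa and the ficolin gene Fcna (0.9998, 0.9998 and 0.9997), and C1qa was at 169 and 107 CPM. For Cd300a they were Zyx, Cd300lf and Rgs1 (0.9977, 0.996 and 0.9958). Zyx was at 312 CPM in LSECs alone, 168 CPM in co-culture and 91.1 CPM in Hepa1-6 alone. Cd300a was at 33.2, 4.75 and 0.155 CPM in the same groups, so a high correlation does not mean a like level or a like fold difference. Cd300lf belongs to the set, which was chosen with these values known, so nothing is read from its place here.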

How the data were processed

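RNA from 12 mouse cultures was sequenced after a stranded mRNA library kit, per the labels. HISAT2, StringTie and the mm10 build are named in the submitters' processing notes; versions, annotation and the strand setting of the counting are not given in the sources used here. The deposited gene table gives for each library an estimated count (expected count, whole numbers), which the authors also normalised to TPM and FPKM. Counts were used for every fit, deposited TPM for levels between genes and 1 alternative, and FPKM not at all. Transcript lengths and coordinates come from the deposited transcript table, whose StringTie counts gave the transcript shares.

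Each comparison was fitted on its own 6 libraries with edgeR 4.0.16 in R 4.3.3 (filterByExpr, TMM, robust quasi-likelihood F-test, Benjamini-Hochberg over all fitted genes, threshold 0.05). Standard errors came from the F statistic. CPM used 1 TMM scale over 12 libraries. The 3 counts that a count of 0 allows, and total counts, bear on counting error only. Scripts were tested on simulated data.

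Replicate numbers of the LSEC groups were taken as pairs for the block and the same-numbered ratios. Deviations from group means correlated in every same-numbered pair (0.75, 0.423 and 0.461), and between replicates 2 and 3 the crossed pairs gave similar values (0.473 and 0.4). Because replicate 1 stood apart in both groups, replicates 2 and 3 deviate to the same side in any pairing. Their pairing is therefore not established, and results with the block depend on it. Hepa1-6 pairs did not correlate (0.0117, -0.0343 and -0.051). The alternatives were the block, replicates 2 and 3 alone, each library left out, other size factors, no count filter, DESeq2 1.42.0 and limma 3.58.1 on log2(TPM + 1).

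Named genes were the 10 of the set, and from each list up to 4 with the smallest LSEC p among those of at least 5 CPM, plus Trem2, Clec7a, Vsig4, Tyrobp and Fcer1g. The set and the lists were chosen with earlier results of these data known. Shared 50-base words were counted in GENCODE transcripts and promoters taken from RefSeq (GRCm38.p6).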

Additional observations from a re-analysis of the deposited data

How the results depend on the processing

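The number of genes called in LSECs, 471 in the fit without a block, was 5082 with the replicate block, 5559 with replicates 2 and 3 alone, 1301 by DESeq2, and 146 to 490 when 1 library was left out. In Hepa1-6 limma on log2(TPM + 1) called 1287 genes in place of 2298. With the replicate block, calls in LSECs went from 2 to 8 among other family genes, from 8 to 16 among signalling genes, from 12 to 23 among other receptors, from 1 to 7 among phosphatidylserine genes and from 7 to 20 among macrophage markers. With replicates 2 and 3 alone they were 9, 13, 22, 8 and 22, and with 1 library left out 1 to 2, 2 to 8, 3 to 13, 0 to 1 and 3 to 8. Signalling calls were 5 without a count filter and 5 by limma, and phosphatidylserine calls 2 by DESeq2 and 0 by limma. With the block 10 of the 10 genes of the set were past the threshold in place of 9. The cause of these shifts was not tested. No called direction reversed for a single gene under the alternatives run. Of values not called, the log2 fold change of Tyrobp in LSECs went from 0.37 to -0.07 without LSEC co-culture replicate 1, and that of Cd300lb in Hepa1-6 from 0.01 to between -0.29 and -0.03 without Hepa1-6 co-culture replicate 1 or mono-culture replicate 1 or 2. Of 504 values of single genes, 448 kept their side of the threshold or, for ratios of mean levels, stayed within the spread between replicates. Of the others, 37 lost and 18 gained a call, and 1 (the ratio for Ms4a6c from TPM, 3.60 on the log2 scale) moved by more than its spread. Genes near 0, Ms4a4a and Ms4a4c in LSECs alone and the 10 genes in Hepa1-6, are limited by counting error.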
